A study of Mus musculus with 20 samples.

Results

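The solute carrier (SLC) superfamily was followed through the liver transcriptome of mice in which sex chromosomes and gonads were inherited separately. Members were all probes whose only gene symbol in the platform annotation began with Slc, in any letter case and with the Slco family included, apart from 1 gene that was left out, and probes of the same symbol were averaged. This gave 270 members from 303 probes, out of 21644 features from 23574 probes. Of the members, 259 carried an identifier of a mouse gene, and 11 did not, 9 of them written in capitals as SLC41A3 is. For these the platform annotation gave an identifier outside the mouse gene table, and they were kept under the symbol as written. Symbols that differ only in letter case were not joined. Thus SLC1A5, SLC24A1, SLC25A35, SLC38A3 and SLCO2A1 are counted beside Slc1a5, Slc24a1, Slc25a35, Slc38a3 and Slco2a1 as separate members.

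RNA came from the livers of 20 C57BL/6J mice, 1 array per animal and 5 animals in each of 4 groups. Gonadal males were XX mice with the Sry transgene on an autosome (XXM) and XY- mice with the same transgene (XYM). Gonadal females were XX mice (XXF) and XY- mice (XYF) without it. Here Y- stands for a Y chromosome from which Sry, the testis-determining gene, is deleted. Every animal was fed chow with 4% fat, was gonadectomized at 8 weeks and was sampled at 12 weeks, having fasted for 12 h, so that no group had its gonads at the time of sampling. The transgene and the gonads carried until gonadectomy go together in these groups, so their parts in a difference cannot be told apart. Gonadal difference below means both together. Each liver was hybridised in Cy5 against a common liver pool in Cy3. All values below are log2 ratios of liver over pool, or differences between such ratios, and they set no member's level against another's.

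SLC proteins carry nutrients, bile acids, ions, metals, vitamins and metabolites across the plasma membrane and the membranes of mitochondria, endosomes, lysosomes and the Golgi. In hepatocytes they take up bile acids, amino acids, fatty acids and organic anions from blood, exchange sugars with it, and move intermediates of fatty acid oxidation, the urea cycle and gluconeogenesis into and out of mitochondria. ATP-driven pumps then export many of the same compounds into bile. Several organic anion carriers of the mouse liver are known to differ between the sexes: Slco1a1 as a carrier of male livers and Slco1a4 as one more abundant in female livers of intact mice.

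Some libraries stood apart. The library labelled XYF 30 lacked Y-linked signal: Eif2s3y stood at -3.90 and Kdm5d at -3.16 in it, against 0.57 to 1.34 and 0.14 to 1.37 in the other 9 XY livers, and it was kept in its labelled group. The SD of log2 ratios over the array was above 0.3 on 4 arrays, XXF 2, XXF 6, XYF 3 and XYF 12, and between 0.175 and 0.264 on the other 16. The probe annotation covered 4 of 6 hepatocyte markers, which did not separate the gonadal types (median difference -0.01, 0 past the threshold). Of 9 Kupffer cell markers 6 were lower in gonadal males past the threshold, as were 6 of 9 lymphocyte markers, against 2.28% of all features. Their values stand beside the members that moved with them. Also lower were 1 of 7 pericentral hepatocyte markers (Rhbg, -0.67), 1 of 6 measured stellate cell and fibroblast markers (Col1a1, -0.87) and 1 of 4 measured erythroid markers (Hba-a1, -0.56). Ratios to a liver pool do not show whether a marker of another tissue was present, so the tissue label was checked only in this relative way.

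Few SLC members differed between gonadal males and gonadal females. At an adjusted p below 0.05 in limma, 8 of 270 members (2.96%) passed, against 3.74% of all features. Of these, 3 were higher in gonadal males, against 1.46% of all features: the magnesium carrier SLC41A3, the creatine transporter Slc6a8 and Slc4a1ap. Another 5 were lower in gonadal males, against 2.28% of all features: the bile acid exporter subunit Slc51b, the amino acid exchanger Slc7a8, the ion carriers Slc12a8 and Slc9a9 and the dicarboxylate transporter Slc13a3. An unadjusted p below 0.05 was reached by 66 members (24.4%), 29 higher and 37 lower, against 17.8% of all features. The median difference over the members was 0.00, against 0.01 over all features, and the median size of the difference was 0.07, against 0.06. No member separated every gonadal male from every gonadal female, against 0.342% of all features. In bulk liver RNA, fewer cells of a type and less RNA per cell cannot be told apart, and this holds for every difference below.

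**Figure D1:**
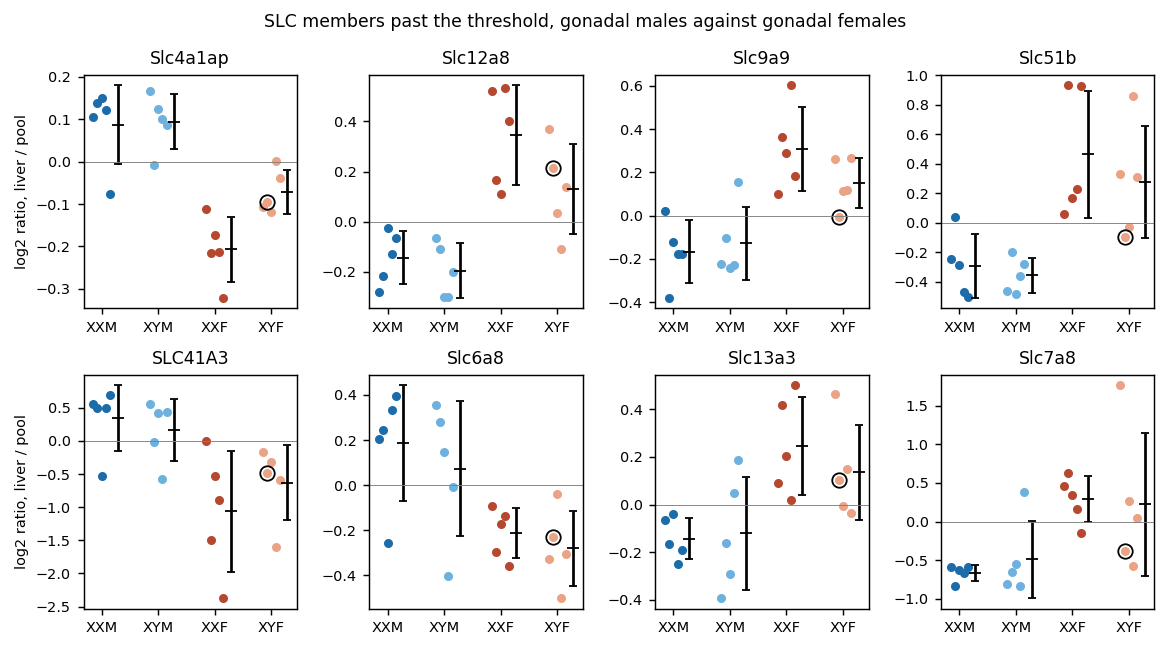
Log2 ratio of liver over pool (vertical axis) for the 8 SLC members past the threshold, with 1 point per animal for XXM, XYM, XXF and XYF. Black bars give the mean and SD of the 5 animals of a group, and the circled point is the library labelled XYF 30. In each panel the gonadal types differ in their means while some of their points overlap.

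Slc51b encodes the beta subunit of the organic solute transporter, which exports bile acids across the basolateral membrane. It ranged from -0.51 to 0.04 with a median of -0.32 in the 10 gonadal males, against -0.10 to 0.93 with a median of 0.27 in the 10 gonadal females. The ranges overlapped only through the upper end of the males (XXM 18) and the lower end of the females (XYF 30, XYF 24). The difference was -0.69 ± 0.13 (SE), or 1.62-fold lower in gonadal males (adjusted p = 0.00673). The 3 highest values were those of XXF 6 (0.93), XXF 2 (0.92) and XYF 3 (0.86). Without the 4 arrays of wide spread, which include these, the difference was -0.43 ± 0.084 (adjusted p = 0.0103), so the difference was smaller while the call held. Its call also held in each of the 20 fits that left out 1 animal, with differences from -0.74 to -0.62.

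Slc12a8, of the cation-chloride cotransporter family and also proposed in mice as a carrier of nicotinamide mononucleotide, was 1.33-fold lower in gonadal males. It lay between -0.30 and -0.02 with a median of -0.16 in gonadal males, and between -0.11 and 0.53 with a median of 0.19 in gonadal females (difference -0.41 ± 0.068, adjusted p = 0.00268). All 10 gonadal males were below the pool, as was 1 gonadal female, XYF 3. Slc9a9, the sodium/proton exchanger NHE9 of endosomes, lay between -0.38 and 0.16 with a median of -0.18 in gonadal males, against -0.01 to 0.60 with a median of 0.22 in gonadal females (-0.38 ± 0.070, adjusted p = 0.00593). Among gonadal males only XXM 38 and XYM 14 were above the pool. The average for Slc9a9 joined 2 probes that did not move alike: 1 differed by -0.68 ± 0.11 (adjusted p = 0.00158) and the other by -0.08 ± 0.074 (adjusted p = 0.689), each tested on its own.

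Slc4a1ap had the smallest p of all members. Its product, kanadaptin, was named for binding anion exchanger 1 and is not itself a carrier. Its log2 ratio ran from -0.08 to 0.17 with a median of 0.11 in gonadal males, and from -0.32 to 0.00 with a median of -0.12 in gonadal females. The difference was small, 0.23 ± 0.038 or 1.17-fold (adjusted p = 0.00259), and XXM 32 (-0.08) and XYM 27 (-0.01) were the only gonadal males below the pool. Slc4a1ap, Slc12a8 and Slc9a9 kept their calls in all 20 fits without 1 animal, as Slc51b did.

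The upstream sequences of the called members with 1 listed transcription start are shown for the 3 whose calls held in every such fit, as context for where their transcription begins. Each is the 250 bases before the RefSeq start on the gene's strand, in GRCm38.p6, with matches to any of 3 motifs in capitals. The motifs, searched on both strands, were TTCNNNGAA (bound by STAT5), AGGTCA (core of many nuclear receptor elements) and AGAACA (core of glucocorticoid and androgen receptor elements). Slc12a8 has 3 listed starts and is not shown.
Slc51b, chr9:65422774-65423023, minus strand: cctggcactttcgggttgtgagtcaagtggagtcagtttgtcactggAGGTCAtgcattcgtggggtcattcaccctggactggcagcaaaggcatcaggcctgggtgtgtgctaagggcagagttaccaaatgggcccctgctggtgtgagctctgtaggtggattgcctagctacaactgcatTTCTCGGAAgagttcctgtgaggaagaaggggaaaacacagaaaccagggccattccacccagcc
Slc9a9, chr9:94669642-94669891, plus strand: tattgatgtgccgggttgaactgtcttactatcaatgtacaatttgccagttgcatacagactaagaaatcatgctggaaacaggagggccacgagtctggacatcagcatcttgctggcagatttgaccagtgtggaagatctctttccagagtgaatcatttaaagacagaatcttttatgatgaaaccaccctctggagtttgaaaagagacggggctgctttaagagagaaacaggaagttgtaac
Slc4a1ap, chr5:31526745-31526994, plus strand: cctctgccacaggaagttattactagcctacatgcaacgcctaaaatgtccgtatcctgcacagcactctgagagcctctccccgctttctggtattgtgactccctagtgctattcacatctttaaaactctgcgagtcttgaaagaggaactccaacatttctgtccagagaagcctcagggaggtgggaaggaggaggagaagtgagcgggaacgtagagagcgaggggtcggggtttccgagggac
The Slc51b window held 1 AGGTCA and 1 TTCNNNGAA match, which did not overlap, and the other windows shown held 0 matches. Over the 32851 starts listed, 14.0% of windows held AGGTCA, 7.02% held TTCNNNGAA and 16.1% held AGAACA. These matches describe letters in a window and were not tested against the differences.

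The calls of the remaining 4 members were lost in some fits without 1 animal, and those of 3 of them without the 4 arrays of wide spread. Calls over all features fell in some of these fits too, from 809 to 404 without XXM 31 and 393 without XYM 19. SLC41A3, named by the annotation for a member of the magnesium carrier family, ranged from -0.58 to 0.69 with a median of 0.47 in gonadal males, against -2.37 to -0.01 with a median of -0.55 in gonadal females (1.10 ± 0.26, 2.14-fold higher, adjusted p = 0.0266). In 7 of 10 gonadal males it stood between 0.42 and 0.69, and the others were XXM 9 (-0.53), XYM 5 (-0.58) and XYM 27 (-0.01), and the lowest females were XXF 2 (-2.37), XYF 3 (-1.60) and XXF 6 (-1.50). Without the 4 arrays of wide spread the difference was 0.72 ± 0.20 and no longer passed (adjusted p = 0.0655). Its call was also lost without XXM 18, XXM 31 or XYM 19 (adjusted p up to 0.0573, differences from 0.93 to 1.23 over the 20 fits without 1 animal). Because its identifier is not in the mouse gene table, which mouse transcript the probe reads was not settled here.

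Slc6a8, the X-linked creatine transporter, ranged from -0.40 to 0.40 with a median of 0.23 in gonadal males and from -0.50 to -0.04 with a median of -0.26 in gonadal females (0.38 ± 0.095, 1.30-fold, adjusted p = 0.0332). All 10 gonadal females were below the pool, as were XYM 5, XXM 9 and XYM 14 among the males. Slc13a3, which takes up succinate and other dicarboxylates with sodium, ranged from -0.39 to 0.19 with a median of -0.16 in gonadal males and from -0.03 to 0.50 with a median of 0.13 in gonadal females (-0.32 ± 0.083, adjusted p = 0.0355). Slc6a8 passed in 11 of the 20 fits without 1 animal and failed without XXM 18, XXM 31, XXM 32, XXM 38, XYM 19, XYM 20, XYM 27, XXF 2 or XYF 3 (adjusted p up to 0.0718, differences from 0.34 to 0.44). Slc13a3 passed in 10 and failed without XXM 18, XXM 31, XXM 32, XYM 19, XYM 20, XYM 27, XXF 2, XXF 6, XXF 21 or XYF 3 (adjusted p up to 0.0752, differences from -0.36 to -0.28). Without the 4 arrays of wide spread they stood at 0.29 ± 0.11 (adjusted p = 0.187) and -0.19 ± 0.076 (adjusted p = 0.196).

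Slc7a8, the LAT2 exchanger of neutral amino acids, ranged from -0.84 to 0.38 with a median of -0.64 in gonadal males, against -0.58 to 1.76 with a median of 0.21 in gonadal females. The difference was -0.83 ± 0.23, which is 1.78-fold lower in gonadal males (adjusted p = 0.0478). In gonadal males 9 of 10 values lay between -0.84 and -0.54, and the exception was XYM 14. The call was close to the threshold and passed in 4 of the 20 fits without 1 animal, those without XYM 14, XYF 3, XYF 12 or XYF 30. In the others the adjusted p reached 0.0939, and the differences over all 20 lay between -0.94 and -0.64. Without XYM 14 and XYF 12 together it stood at -0.75 ± 0.11 (adjusted p = 7.30e-04).

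Kupffer cells are the resident macrophages of the liver. Their 9 markers had a median difference of -0.93, and 6 were lower in gonadal males at an adjusted p below 0.05, 0 higher: Clec4f (-0.82), Csf1r (-0.97), Cd5l (-1.18), C1qa (-0.94), C1qb (-0.63) and C1qc (-0.93). Their mean log2 ratio ran from -1.10 to 0.39 with a median of -0.80 in gonadal males, against -0.29 to 1.75 with a median of 0.03 in gonadal females. The highest gonadal male was XYM 14 (0.39) and the highest gonadal female XYF 12 (1.75). Of 9 lymphocyte markers 6 were lower in gonadal males, and their mean did not overlap: -0.48 to -0.23 in gonadal males, against 0.10 to 0.80 in gonadal females. The lymphocyte marker mean too was highest in XYM 14 (-0.23) among gonadal males and in XYF 12 (0.80) among gonadal females. The same held for the means of stellate cell and fibroblast markers (0.21 and 0.43) and of sinusoidal endothelium markers (0.11 and 0.18). It did not hold for hepatocyte markers (0.09 and -0.08). High values in these arrays were thus not particular to Kupffer cell markers.

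Slc7a8 had the same high arrays, XYM 14 at 0.38 and XYF 12 at 1.76. So did 3 members chosen here after their values were seen. They were not drawn from a list of macrophage carriers, so they do not stand for such carriers as a group. Slc40a1, in the metal class with Slc11a1, ran from -0.26 to 0.71 in gonadal males and from -0.36 to 0.53 in gonadal females. Slc15a3, a lysosomal carrier of peptides and histidine found in immune cells, stood at 0.23 in XYM 14, against -0.75 to -0.37 in the other 9 gonadal males, and at 1.86 in XYF 12, against -0.23 to 0.49 in the other 9 gonadal females. Slc7a7, an exchanger of cationic and neutral amino acids that macrophages also use, was at 0.23 in XYM 14 and 0.75 in XYF 12, the highest value of each gonadal type. Slc11a1, the metal carrier of macrophage phagosomes, was at -0.02 and 0.90 in these arrays, again the highest of each type. Slco3a1, an organic anion carrier, was highest among gonadal females in XYF 12 (1.06), while XYM 14 (-0.06) was within the range of the other gonadal males.

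These members were lower in gonadal males without passing the threshold: Slc15a3 differed by -0.71 ± 0.20 (adjusted p = 0.0589), Slc7a7 by -0.40 ± 0.11 (adjusted p = 0.0521), Slc11a1 by -0.36 ± 0.12 (adjusted p = 0.110) and Slco3a1 by -0.54 ± 0.15 (adjusted p = 0.0572). Without XYM 14 and XYF 12, a setting added after the data were seen, Slc15a3 (-0.60 ± 0.092, adjusted p = 9.22e-04) and Slc7a7 (-0.38 ± 0.086, adjusted p = 0.0162) passed. In that fit 11 of 270 members passed, against 4.13% of all features. The part of macrophage or lymphocyte number in the differences of these members was not tested.

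**Figure D2:**
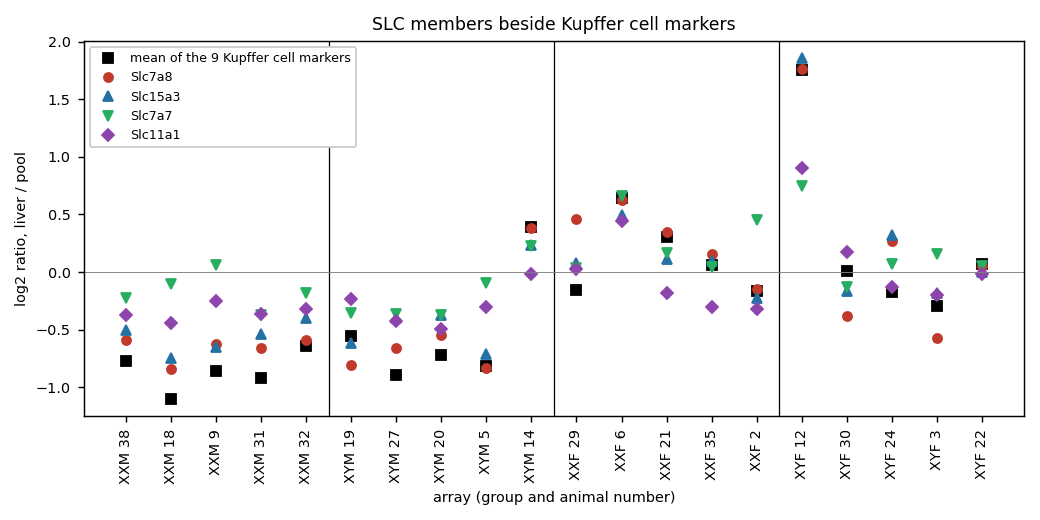
Log2 ratio of liver over pool (vertical axis) on the 20 arrays, for Slc7a8, Slc15a3, Slc7a7 and Slc11a1 (coloured symbols) and for the mean of the 9 Kupffer cell markers (black squares). Vertical lines divide XXM, XYM, XXF and XYF. XYF 12 stands highest, with the marker mean at 1.75 and Slc15a3 at 1.86, and XYM 14 stands above the other gonadal males.

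By substrate, the called members were spread over 6 of 13 classes, and no class had a median difference above 0.07 in size. Over all features 3.74% were called, and at that share classes of these sizes hold few calls or none. Transporter classes with a call had 2.94% to 7.14% of their members called. The counts by class are therefore a description and not a trait of any substrate. The 63 carriers of amino acids, peptides and neurotransmitters had 1 member higher (Slc6a8) and 1 lower (Slc7a8) in gonadal males, with a median of 0.01. The 34 carriers of bile acids and organic anions had 0 higher and 1 lower (Slc51b; median 0.00), the 40 carriers of inorganic ions and phosphate 0 higher and 2 lower (Slc12a8 and Slc9a9; median -0.01), the 26 of metals and heme 1 higher and 0 lower (SLC41A3; median 0.01), and the 14 of carboxylates 0 higher and 1 lower (Slc13a3; median -0.01). Slc4a1ap was 1 of 3 members that are not transporters. No member passed among 21 mitochondrial carriers, 20 carriers of vitamins, choline and nucleosides, 18 of sugars, 15 of nucleotide sugars and sugar phosphates, 4 of organic cations and drugs, 3 of fatty acids and 9 others. At an unadjusted p below 0.05 the mitochondrial class had 8 of 21 members (38.1%), 4 higher and 4 lower, against 24.4% of all members and 17.8% of all features. The share was 35.0% for vitamins, choline and nucleosides, 29.4% for bile acids and organic anions and 28.6% for carboxylates. Over all classes it ran from 0% (fatty acids, organic cations and drugs) to 66.7% (2 of 3 members that are not transporters).

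**Figure D3:**
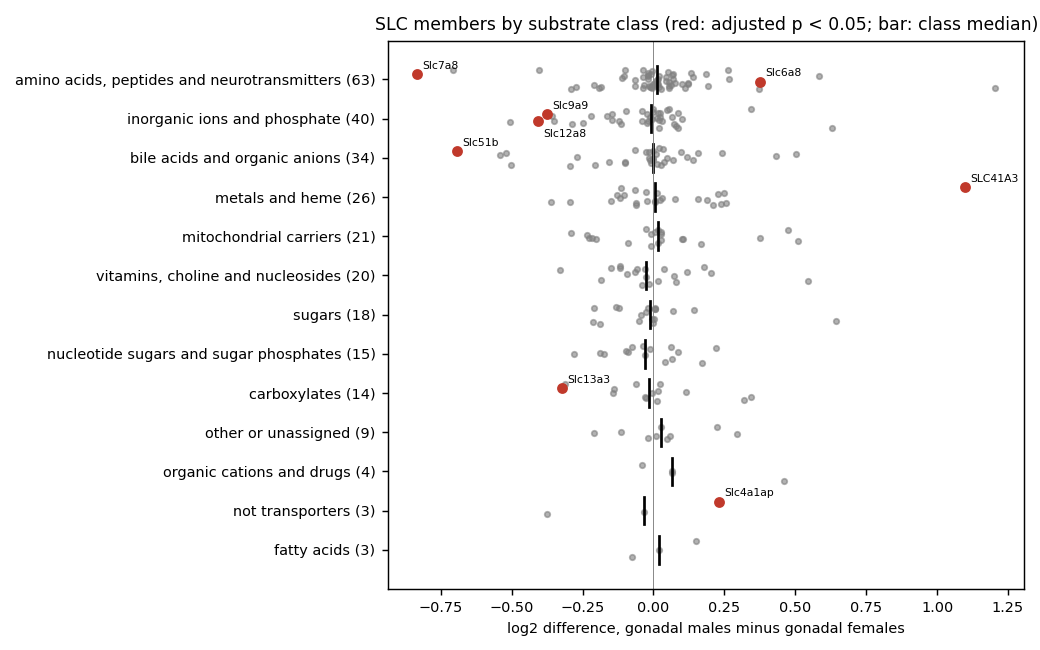
Log2 difference, gonadal males minus gonadal females (horizontal axis), for each of the 270 members, by substrate class with the number of members in brackets. Red points passed the threshold, and black bars mark class medians, all between -0.03 and 0.07.

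Of a list of 30 liver transporters 26 were measured, and 1, Slc51b, was lower in gonadal males, with 0 higher, against 3.74% of all features called. An unadjusted p below 0.05 was reached by 6 of the 26, against 17.8% of all features. The median difference was -0.01, against 0.01 over all features, with 12 members above 0 and 14 below, and the median size of the difference was 0.15, against 0.06. Slc10a1, the sodium-dependent bile acid importer NTCP, ran from -0.16 to 0.21 with a median of 0.08 in gonadal males and from -0.33 to 0.15 with a median of -0.14 in gonadal females (0.16 ± 0.066, adjusted p = 0.209). Slco1a1 had medians of -0.18 in gonadal males and 0.08 in gonadal females (-0.21 ± 0.097, adjusted p = 0.275), and Slco1a4 medians of 0.12 in gonadal males and -0.13 in gonadal females (0.24 ± 0.072, adjusted p = 0.0718). The ranges overlapped for both, and both differences ran opposite to the direction known from intact mice without passing the threshold. Slco1a4 averaged 3 probes, which differed by 0.15, 0.45 and 0.12. None passed when tested on its own in limma (lowest adjusted p = 0.186), and the median r between them over the arrays was -0.08.

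The other organic anion importers of hepatocytes showed no difference past the threshold: Slco1b2 differed by -0.10 ± 0.22, Slco2b1 by 0.02 ± 0.10 and Slc22a7 by -0.01 ± 0.061. Slco1b2 varied widely within both gonadal types, from -0.93 to 0.65 in males and from -0.48 to 1.08 in females. Among amino acid carriers, the importer Slc38a4 stood at 0.26 ± 0.095 (adjusted p = 0.133) and Slc38a2 at 0.19 ± 0.16 (adjusted p = 0.602). The cationic amino acid carrier Slc7a2 stood at 0.37 ± 0.19 (adjusted p = 0.328), or at -0.01 ± 0.11 without the 4 arrays of wide spread. Slc7a5 and Slc3a2, the light and heavy chain of the LAT1 exchanger, stood at -0.19 ± 0.099 and 0.07 ± 0.11, and the glutamate carrier Slc1a2 at -0.11 ± 0.11.

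For sugars, the hepatocyte glucose carrier Slc2a2 differed by -0.05 ± 0.13, Slc2a1 by -0.21 ± 0.16 and the inositol carrier Slc5a3 by 0.14 ± 0.066. The fructose carrier Slc2a5 was more variable, from -0.58 to 0.78 in gonadal males and from -1.62 to 0.13 in gonadal females (0.64 ± 0.22, adjusted p = 0.121). Without the 4 arrays of wide spread Slc2a5 stood at 0.15 ± 0.11. Among carboxylate carriers, the lactate carrier Slc16a1 stood at 0.00 ± 0.13, the citrate carrier Slc13a5 at -0.03 ± 0.056 and Slc16a11 at -0.31 ± 0.11 (adjusted p = 0.124). The vitamin class was led by the folate carrier Slc19a1 (0.54 ± 0.16, adjusted p = 0.0703) and the choline carrier Slc44a1 (-0.18 ± 0.060, adjusted p = 0.0953), with the nucleoside carrier Slc29a1 at -0.07 ± 0.14. None of these differences passed the threshold.

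Metal carriers other than SLC41A3 did not pass. The zinc carrier Slc30a5 stood at 0.24 ± 0.077 (adjusted p = 0.0947), Slc39a14, which takes up zinc, iron and manganese, at 0.19 ± 0.12, and the iron exporter ferroportin (Slc40a1) at -0.02 ± 0.12. The mitochondrial class was led by the calcium-regulated ATP-Mg/phosphate carrier Slc25a23 (-0.23 ± 0.074, adjusted p = 0.0974) and the iron importer mitoferrin 1, Slc25a37 (-0.22 ± 0.082, adjusted p = 0.153). The 2 probes of Slc25a37 gave -0.47 and 0.03. The aspartate/glutamate carrier Slc25a13 stood at 0.00 ± 0.11, and Slc25a20, which brings acylcarnitines into mitochondria, at 0.51 ± 0.24 (adjusted p = 0.275), or at 0.15 ± 0.20 without the 4 arrays of wide spread.

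The following members, from classes not yet described and from the liver list, did not pass. Slc37a2, of the sugar phosphate exchangers, stood at -0.28 ± 0.13 and the nucleotide sugar carrier Slc35a5 at 0.17 ± 0.084. Slc22a21 of the carnitine carrier group stood at 0.07 ± 0.043, and the fatty acid transport proteins Slc27a5 and Slc27a2, of which Slc27a5 also activates bile acids, at -0.07 ± 0.078 and 0.15 ± 0.18. Slc49a4 (0.29 ± 0.13) and Slc22a18 (-0.21 ± 0.098) led the unassigned class, and the phosphate carrier Slc34a2 stood at -0.16 ± 0.20. The scaffold protein Slc9a3r1 (NHERF1), which is no carrier, stood at -0.38 ± 0.15 (adjusted p = 0.172). Without the 4 arrays of wide spread Slc9a3r1 stood at -0.16 ± 0.11 and Slc37a2 at -0.06 ± 0.10.

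Some members shared their extreme arrays. Slc25a47, a mitochondrial carrier of the liver, stood at -2.49 in XXF 6, -1.44 in XXF 2 and -1.14 in XYF 3, against -0.31 to 0.30 on the other 17 arrays. Slc22a5, the plasma membrane carnitine importer OCTN2, stood at -1.77, -1.36 and -1.18 in the same arrays, against -0.62 to 0.55 on the others. Slc27a2, a fatty acid transport protein that also activates very long chain fatty acids, stood at -1.03, -1.01 and -0.71, against -0.24 to 0.49. These 3 animals were all gonadal females and came from both sex chromosome complements.

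The same 3 arrays were the lowest of all 20 for 5 members, Slc25a47, Slc22a5, Slc27a2, SLC41A3 and the bicarbonate carrier Slc4a4, and the highest for 7 members, among them Slc51b, the anion carrier Slc17a3 and the scaffold Slc9a3r1. Together this was 12 of 270 members (4.44%), against 576 of 21644 features (2.66%). Slc17a3 stood at 1.37, 1.05 and 1.10 in XXF 6, XXF 2 and XYF 3, against -0.90 to 0.86 on the others. All 3 are among the arrays of wide spread. Without the 4 arrays of wide spread, Slc25a47 differed between gonadal males and gonadal females by -0.04 ± 0.093, Slc22a5 by -0.01 ± 0.13 and Slc27a2 by -0.25 ± 0.071 (adjusted p = 0.0719), against 0.48 ± 0.29, 0.46 ± 0.25 and 0.15 ± 0.18 with all 20 arrays. The pattern was noticed after the values were seen, and the part of the wide spread of these arrays in it was not tested.

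In the fit without those 4 arrays 10 members passed, against 3.84% of all features: Slc4a1ap, Slc12a8, Slc9a9, Slc51b and Slc7a8 of the 8, and 5 others. These others were Slc15a3 (-0.54), the mitochondrial dicarboxylate carrier Slc25a10 (-0.37), Slc39a14 (0.37), Slc43a1 (0.59) and Slc3a1 (0.85). Without the library labelled XYF 30, 14 members passed, against 5.22% of all features. They included all 8 and added Slc15a3 (-0.77), Slc7a7 (-0.44), Slco3a1 (-0.62), Slc30a5 (0.28), Slc43a1 (0.62) and Slco1a4 (0.28). Slc43a1, a facilitative carrier of large neutral amino acids, and Slc25a10 are outside the rule for named genes and are given for completeness of these counts.

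**Figure D4:**
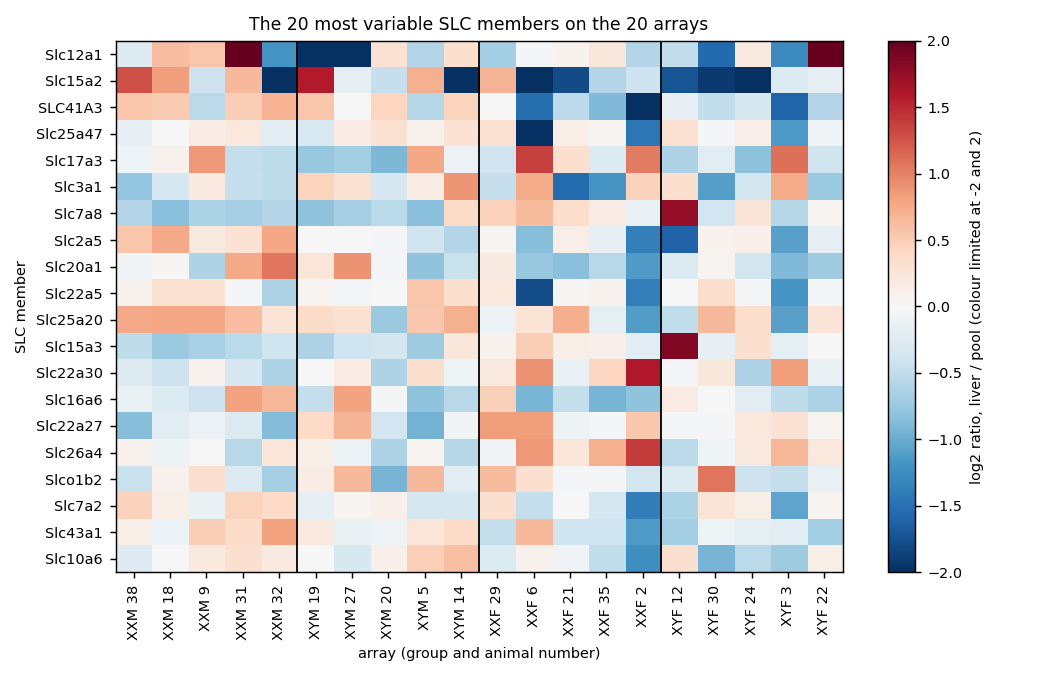
Log2 ratio of liver over pool (colour, limited at -2 and 2) for the 20 SLC members with the largest SD over the 20 arrays (rows), with arrays in columns and lines between XXM, XYM, XXF and XYF. Slc12a1 reaches 4.51 in XXM 31 and 6.64 in XYF 22, and XXF 6, XXF 2 and XYF 3 share the low values of Slc25a47 and Slc22a5.

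Variation over the 20 arrays, which includes differences between groups, was close to that of other features. The median SD was 0.17 for the members, against 0.16 for all features, and 17 members exceeded 0.5. Slc12a1, the sodium-potassium-chloride cotransporter of the kidney's thick ascending limb, had the largest (SD 2.09). It stood at 4.51 in XXM 31 and at 6.64 in XYF 22, which is the limit of the deposited values and the only limited value among the members, against -2.65 to 0.62 on the other 18 arrays. The next was Slc15a2, the peptide carrier PEPT2 (SD 1.43), with -2.29 to 1.58 and a median of 0.22 in gonadal males, against -3.44 to 0.68 and a median of -1.16 in gonadal females (1.21 ± 0.58, adjusted p = 0.281). Slc20a1, a sodium-dependent phosphate carrier (SD 0.62; 0.63 ± 0.23, adjusted p = 0.147), and Slc3a1, the heavy chain of the cystine carrier (SD 0.69; 0.26 ± 0.28), also varied within every group.

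Sex chromosome complement gave no call among the members. Of 270, 0 passed for XX minus XY in limma, against 0.0277% of all features, and 7 (2.59%) had an unadjusted p below 0.05, against 5.08%. With the library labelled XYF 30 left out, again 0 passed, against 13 of all 21644 features. In that fit 13 of 270 members had an unadjusted p below 0.05, against 1437 of 21644 features. The smallest p was that of Slc7a4, an orphan relative of the cationic amino acid carriers, with -0.11 to 0.57 and a median of 0.01 in XX livers and -0.42 to 0.05 with a median of -0.10 in XY livers (0.20 ± 0.065, adjusted p = 0.912). It was followed by Slc2a10 (0.15 ± 0.056) and by Slc5a2, the renal glucose carrier SGLT2 (-0.13 ± 0.050). These 3 were chosen after their values were seen.

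The X chromosome carried 7 members, for which XX livers hold a further copy of the gene. Their differences lay between -0.04 and 0.09 with a median of 0.04, against 0.00 for the other 252 placed members, and 0 passed. The largest was that of Slc6a8, with -0.36 to 0.40 and a median of -0.11 in XX livers and -0.50 to 0.36 with a median of -0.13 in XY livers (0.09 ± 0.095, adjusted p = 0.934). The adenine nucleotide carrier Slc25a5, averaged over 8 probes, differed by 0.05 ± 0.062, the uncoupling protein relative Slc25a14 by 0.04 ± 0.058, the UDP-galactose carrier Slc35a2 by -0.04 ± 0.049, Slc10a3 by -0.04 ± 0.070, and the amino acid carriers Slc6a14 and Slc7a3 by 0.05 ± 0.049 and -0.01 ± 0.041. Every X-linked member overlapped between XX and XY livers. The XY livers here include the library labelled XYF 30, which lacked Y-linked signal, and 0 members passed without it too.

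The gonadal difference was also taken within each complement. In XX livers (XXM minus XXF) 3 members passed, against 0.665% of all features: Slc4a1ap (0.29 ± 0.054, adjusted p = 0.0160), Slc12a8 (-0.49 ± 0.096, adjusted p = 0.0229) and Slc9a9 (-0.48 ± 0.098, adjusted p = 0.0293). In XY livers (XYM minus XYF) 0 members passed, against 0.157% of all features, and these 3 stood at 0.17 ± 0.054, -0.32 ± 0.096 and -0.28 ± 0.098. Without the library labelled XYF 30, again 0 members passed in XY livers, against 23 of all 21644 features. The difference between complements was itself tested by the interaction, which called 0 of 270 members, against 0.0% of all features, while 6 (2.22%) had an unadjusted p below 0.05, against 2.6%. Thus no member was shown to respond differently in XX and XY livers.

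All 8 called members had the same direction in both complements. Slc51b stood at -0.76 ± 0.19 in XX livers and -0.63 ± 0.19 in XY livers, and SLC41A3 at 1.40 ± 0.37 and 0.80 ± 0.37. Over the 270 members, 59.6% had the same direction in both, against 61.0% of all features. These contrasts share no arrays. Their differences correlated across members with r = 0.51, against 0.65 over all features, as a description of genes, which are not independent replicates. The r of the members includes Slc12a1, at 1.05 in XX and -1.62 in XY livers, the largest interaction of all features (2.67). Without Slc12a1 r was not computed, so the lower r cannot be read as a trait of the members. The smallest interaction p was that of Slc12a2, the widely expressed sodium-potassium-chloride cotransporter, at 0.03 in XX and 0.66 in XY livers (interaction -0.63 ± 0.24, adjusted p = 0.9995).

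**Figure D5:**
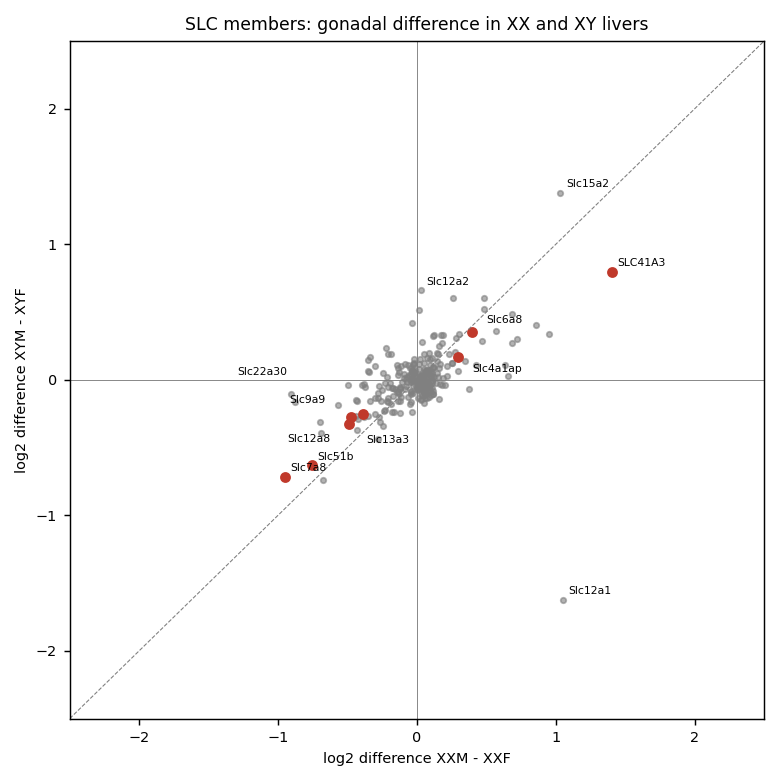
Log2 difference XXM minus XXF (horizontal axis) against XYM minus XYF (vertical axis) for the 270 members, with the 8 called members in red and the line of equal differences dashed. All red points lie in the lower left or upper right, and Slc12a1 lies far off the line, with 4.51 in XXM 31 and 6.64 in XYF 22.

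The probes of 1 member often disagreed, which bears on how far a symbol can be read. Of 23 members with more than 1 probe, 13 had probes on both sides of 0 for the gonadal difference. For some the probes lay close to 0, as for Slc22a13 (-0.03 and 0.01), where a change of sign says little. For others they lay further apart, as for Slc25a37 (-0.47 and 0.03). Slc25a5 was the most covered, with 8 probes that all lay between 0.04 and 0.19. Of the called members, Slc9a9 had 2 probes and the other 7 had 1 each.

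Of a list of 20 ATP-driven pumps and flippases, most of them ABC proteins, 16 were measured, and 1, Abcb1b of the P-glycoprotein family, was higher in gonadal males (0.29 ± 0.049, adjusted p = 0.00313), with 0 lower and a median of 0.07, against 3.74% of all features called. It ran from -0.05 to 0.20 with a median of 0.11 in gonadal males, against -0.37 to 0.04 with a median of -0.18 in gonadal females. Of 26 regulators of transporter genes 20 were measured, and 1 passed: Cux2, a repressor and activator known for its bias to female mouse liver, stood at -0.56 to 0.58 with a median of 0.38 in gonadal males and at -0.99 to 0.14 with a median of -0.45 in gonadal females (0.72 ± 0.15, adjusted p = 0.0119). The median of that list was -0.06. A single call in lists of this size is near the share of all features and says nothing particular of either list.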

How the data were processed

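Liver RNA of 20 mice was measured on 2-colour arrays. RNeasy columns with DNase gave the RNA, per the labels' protocols, and it was labelled with a custom aminoallyl MessageAmp II procedure. The labels name the pool both as liver of chow-fed mice and as equal portions of all samples, and it cancels between groups. The authors deposited log10 ratios for 23574 probes. Base and direction are not stated, and base 10 and liver over pool were taken from the limit of 2 in size, where 29 values lay, and from Y-linked genes. Another base would scale all differences by the same factor. Scanner, background correction and dye normalization are not given in the sources used here. Ratios carry no intensity, so no filter on dim probes was possible and depth does not apply, while the number of arrays limits precision.

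Probes were named through the platform annotation, 9909 stayed unnamed (48 with several symbols), and 2 values were missing. Values were converted to log2. Limma 3.58.1 in R 4.3.3 was fitted to all 21644 features with a mean per group and a shared spread, without covariates. Adjustment was by Benjamini-Hochberg across the whole set of features, at a threshold of 0.05, and errors are SEs from limma unless marked SD. Replicates are separate animals. The fit was tested on simulated data.

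The members and lists were chosen with earlier results of these data known. Named genes were members past the threshold, the 2 of smallest p in each substrate class, 26 measured liver transporters, the 10 most variable, X-linked members and called genes of other lists. Substrate classes were assigned by family and extended to a few symbols once the annotation was at hand. Alternatives left out animals and changed normalization, weights, probe averaging, limited values, the prior and the tested features.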

Additional observations from a re-analysis of the deposited data

Results flagged for a closer look

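In groups of 5 animals, 6 values among 16 members and 64 groups stood far from the other animals of their group. Chance flags about 1 group in 20, but that rate holds for members chosen without regard to spread. These members were those past the threshold and the most variable over the same arrays, so the flags cannot be compared with it. Of the flagged members, only Slc4a1ap was not among the most variable. Slc4a1ap stood at -0.077 in XXM 32, against 0.10 to 0.15 in the other XXM livers. SLC41A3 stood at -0.53 in XXM 9, against 0.50 to 0.69. Slc7a8 stood at 0.38 in XYM 14, against -0.83 to -0.54 in the other XYM livers. This array also had the highest Kupffer cell, lymphocyte, stellate cell and fibroblast, and sinusoidal endothelium marker means of its gonadal type.

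Slc12a1 stood at 6.64 in XYF 22, the limit of the deposited values, against -1.56 to 0.18 in the other XYF livers. In XYF 3, Slc25a47 stood at -1.14, against -0.07 to 0.30, and Slc22a5 at -1.18, against -0.05 to 0.36. XXF 6 and XXF 2 were also low for Slc25a47 and Slc22a5. The causes were not tested.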

How the results depend on the processing

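The count of 8 members past the threshold between gonadal types became 14 without the library labelled XYF 30 or with quantile normalization, 13 with median and scale normalization and 19 with array weights, and each of these included the 8. Over all 21644 features the count rose as well, from 809 to 1129, 1191, 1047 and 1708 in these 4 settings in turn. The count of members was 8 to 11 under single probes, limited values set to missing, a robust prior, named features only, without the 4 arrays of wide spread, without these and the library labelled XYF 30, or without XYM 14 and XYF 12 (the last 2 settings chosen after seeing the data). In these settings 536 (of 11735, named features only) to 894 (of 21644, without XYM 14 and XYF 12) features passed. Over the 20 fits without 1 animal the count of members ran from 4 to 14: 4 without XXM 18, XXM 31 or XYM 19, 5 without XXM 32 or XXF 2, and 14 without XYF 30. Over all 21644 features it ran from 393 without XYM 19 to 1129 without XYF 30 in the same fits. The counts for XX minus XY and for the interaction were 0 in every setting run, with 7 and 6 members at an unadjusted p below 0.05 with all arrays in limma. No named difference past the threshold changed its direction. Slc4a1ap, Slc12a8, Slc9a9 and Slc51b passed in every setting, and SLC41A3, Slc6a8 and Slc13a3 failed without the 4 arrays of wide spread, where fewer samples were fitted, and Slc6a8 also without XYM 14 and XYF 12 (adjusted p = 0.0520). Slc7a8 passed in every setting apart from 16 of the 20 fits without 1 animal. Other named members passed only in some settings. Over the settings and the 20 fits without 1 animal, Slco3a1 passed in 6, Slc30a5 in 5 and Slco1a4 in 4. Slc25a23 and Slc7a3 passed in 3 each, Slc44a1 in 2, and Slc19a1, Slc38a4, Slc39a14 and Slc3a1 in 1 each. The fit without XYF 30 counts in both sets. No paired analysis was possible because the groups share no animal numbers. Precision is limited by 5 arrays per group, and signal over background was not analysed here.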
